A study of Mus musculus with 6 samples.

Results

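The 44 mouse collagen genes, Col1a1 to Col28a1, were examined among 21887 protein-coding genes for acetylation of lysine 27 on histone H3 (H3K27ac), a chromatin mark found at active promoters and enhancers. The genes were taken from a list of gene symbols, by name and not by a threshold on any value, and all 44 were found in the gene table. They comprise 11 fibrillar, 8 basement membrane, 6 beaded filament, 9 fibril-associated, 4 transmembrane and 6 other collagens.

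H3K27ac was mapped by CUT&RUN, an assay in which an antibody guides a nuclease to release the DNA beside a chromatin mark. Cells were sorted from pooled lungs of E16.5 mouse embryos (E16.5 being embryonic age in days). Mesothelium, the sheet of cells on the lung's surface, was gated as PDPN+ EPCAM- CD45- CD31- DAPI-, and epithelium as PDPN+ EPCAM+ CD45- CD31- DAPI-. There were 2 libraries per cell type, made from 25k and 100k mesothelial cells and from 100k and 200k epithelial cells (replicates 1 and 2 in each case) according to the sample titles, whereas the labels' protocol text gives a narrower span of sorted cells per sample. All embryos came from Myrf Fl/Fl matings, for which no Cre is named in the labels, and the series describes the cells as wildtype. The PDPN gate on EPCAM+ cells limits the epithelium to the cells that carry PDPN. No label says that the replicates came from separate pools of embryos, so a p-value here rests on library-to-library spread alone, which could be technical. With 2 libraries against 2, an exact permutation test cannot give a p below 0.333, so the tests come from a model fitted over all genes. Another 2 libraries, made from epithelium with an IgG antibody, were not analysed here, and the peaks therefore stand without a measured background.

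Collagens are trimers of chains wound into a triple helix and are the main structural proteins of the extracellular matrix. Fibrillar collagens assemble into the ropes that carry tension, fibril-associated collagens sit on their surface, beaded filament collagen VI links fibres to cells, and network collagen IV forms the sheet of the basement membrane. In the developing lung, fibrillar collagen lies mainly in the mesenchyme and below the pleural surface, while epithelium and endothelium rest on basement membranes.

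Of the 44 genes, 35 have a promoter entry in RefSeq (GRCm38.p6, the assembly named mm10), which gives 38 windows from 250 bases before to 50 bases after a start site. The windows below, each 5′ to 3′ on the gene's own strand, belong to genes whose acetylation differed between the cell types, to the shared start of Col4a1 and Col4a2, and to Col27a1. Col5a2, Col12a1 and Col14a1, whose acetylation also differed, have no promoter entry. A further window of Col6a2 (chr10:76623355-76623654, minus strand) is not printed. Capitals mark matches on either strand to the motif CCAAT, the motif TATAAA, the motif GGGCGG, the motif CAGAC or the motif CTGGCAC, where overlapping matches run together. Col6a1 is shown because its window (chr10:76725995-76726294, minus strand) was overlapped by a peak in each mesothelium library and in neither epithelium library, and Col27a1 (chr4:63215162-63215461, plus strand) because its window had a peak in each epithelium library and in neither mesothelium library. Col5a1 (chr2:27886175-27886474, plus strand) had peaks just before its window, in the mesothelium libraries. Col3a1 (chr1:45311288-45311587, plus strand) and Col6a2 (chr10:76623581-76623880, minus strand) had no peak within 1 kb of the start in any library. Col6a3 (chr1:90843922-90844221, minus strand) had a peak over the window in mesothelium replicate 1 alone. Col18a1 has an outer start (chr10:77166481-77166780, minus strand), with no peak in its window, and an inner start (chr10:77113656-77113955, minus strand), whose window was overlapped by a peak in mesothelium replicate 1. The Col4a1 window (chr8:11312777-11313076, minus strand) was overlapped in every library except mesothelium replicate 2.
Col6a1: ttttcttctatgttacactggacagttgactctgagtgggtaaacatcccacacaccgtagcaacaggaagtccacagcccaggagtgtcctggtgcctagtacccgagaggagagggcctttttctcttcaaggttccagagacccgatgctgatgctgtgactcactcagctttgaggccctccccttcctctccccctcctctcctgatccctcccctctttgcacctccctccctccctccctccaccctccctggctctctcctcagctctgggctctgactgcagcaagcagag
Col27a1: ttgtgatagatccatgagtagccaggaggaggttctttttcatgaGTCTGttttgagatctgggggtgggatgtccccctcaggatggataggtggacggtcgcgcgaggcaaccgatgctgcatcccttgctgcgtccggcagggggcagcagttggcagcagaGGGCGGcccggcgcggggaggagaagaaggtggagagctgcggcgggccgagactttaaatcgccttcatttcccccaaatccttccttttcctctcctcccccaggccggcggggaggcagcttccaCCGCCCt
Col5a1: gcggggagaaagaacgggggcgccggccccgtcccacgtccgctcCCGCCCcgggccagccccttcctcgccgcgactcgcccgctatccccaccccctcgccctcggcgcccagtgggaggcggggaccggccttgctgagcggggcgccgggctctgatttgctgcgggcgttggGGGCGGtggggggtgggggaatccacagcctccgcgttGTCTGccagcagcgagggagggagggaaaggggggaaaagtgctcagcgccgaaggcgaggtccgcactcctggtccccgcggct
Col3a1: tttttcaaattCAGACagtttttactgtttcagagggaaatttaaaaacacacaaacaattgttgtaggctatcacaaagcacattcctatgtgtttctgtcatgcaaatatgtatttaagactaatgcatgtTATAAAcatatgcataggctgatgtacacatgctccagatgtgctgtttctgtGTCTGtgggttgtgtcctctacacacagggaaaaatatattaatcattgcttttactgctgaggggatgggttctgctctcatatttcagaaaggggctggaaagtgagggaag
Col6a2: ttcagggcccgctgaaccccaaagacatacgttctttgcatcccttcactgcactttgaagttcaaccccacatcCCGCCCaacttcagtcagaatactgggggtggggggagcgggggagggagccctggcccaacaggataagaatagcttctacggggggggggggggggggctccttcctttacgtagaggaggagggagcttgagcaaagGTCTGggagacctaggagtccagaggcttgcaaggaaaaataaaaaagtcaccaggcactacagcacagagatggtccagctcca
Col6a3: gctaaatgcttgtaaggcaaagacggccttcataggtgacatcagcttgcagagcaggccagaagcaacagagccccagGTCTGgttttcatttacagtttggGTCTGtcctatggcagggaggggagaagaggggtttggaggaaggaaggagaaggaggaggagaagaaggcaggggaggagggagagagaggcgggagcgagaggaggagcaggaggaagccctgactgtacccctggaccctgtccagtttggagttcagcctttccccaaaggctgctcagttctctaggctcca
Col18a1 outer start: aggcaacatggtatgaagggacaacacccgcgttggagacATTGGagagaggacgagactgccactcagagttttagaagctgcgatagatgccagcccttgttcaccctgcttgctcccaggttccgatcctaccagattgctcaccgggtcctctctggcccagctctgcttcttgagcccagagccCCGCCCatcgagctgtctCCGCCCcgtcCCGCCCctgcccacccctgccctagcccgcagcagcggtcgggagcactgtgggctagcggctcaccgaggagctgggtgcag
Col18a1 inner start: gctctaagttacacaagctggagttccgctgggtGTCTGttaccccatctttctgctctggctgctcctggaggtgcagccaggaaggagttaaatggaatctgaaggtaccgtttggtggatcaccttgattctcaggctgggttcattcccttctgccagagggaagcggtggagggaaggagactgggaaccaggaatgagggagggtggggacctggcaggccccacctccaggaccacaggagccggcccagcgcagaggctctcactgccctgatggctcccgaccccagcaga
Col4a1: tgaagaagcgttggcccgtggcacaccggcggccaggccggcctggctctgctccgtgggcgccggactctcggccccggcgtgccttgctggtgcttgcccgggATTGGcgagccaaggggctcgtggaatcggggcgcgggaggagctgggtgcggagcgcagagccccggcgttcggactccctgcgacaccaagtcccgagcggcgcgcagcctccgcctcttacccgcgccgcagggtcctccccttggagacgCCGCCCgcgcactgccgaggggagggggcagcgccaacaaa

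Matches to the 5 motifs were about as frequent in collagen windows as in the 21263 windows of all coding genes, apart from GGGCGG. The motif CCAAT, searched like the others on both strands, lay in 34.2% of the 38 collagen windows and 38.2% of all windows. TATAAA lay in 13.2% and 12.6%, CAGAC in 52.6% and 48.4%, and CTGGCAC in 5.26% and 4.97%. GGGCGG lay in 60.5% of collagen windows and 46.2% of all windows. No difference between these shares was tested. Col6a1, the window with peaks in both mesothelium libraries, held none of the 5 motifs, which says only that these letters are not in it. Its GC content was 57.3%, that of Col3a1 37.7% and that of Col5a1 75.0%, against a median of 56.3% over all windows.

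For each gene a domain was set as the gene body plus up to 50 kb on each side, ending midway to the next coding gene, and the measure is the length of the domain lying inside peaks, in kb. The 44 domains together spanned 7.07 Mb. Peaks covered 135.3 and 137.3 kb of them in mesothelium replicates 1 and 2, and 116.9 and 88.8 kb in epithelium replicates 1 and 2. The mesothelium libraries covered more collagen sequence than the epithelium libraries although they covered less of the genome, 35.7 and 39.8 Mb against 44.4 and 41.4 Mb. As a share of each library's covered length, collagen domains took 0.379% and 0.345% in mesothelium and 0.263% and 0.215% in epithelium. Most of these peaks were weak, since only 3 and 8 of the 158 and 154 mesothelium peaks and 2 and 0 of the 144 and 116 epithelium peaks had a deposited −log10 q of at least 4. Peaks of that strength were also few over all autosomal, X and Y peaks. They were 623 of 39006 and 2267 of 41524 in mesothelium, and 569 of 47869 and 576 of 46632 in epithelium.

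Summed over each class, the mesothelium libraries had the longer covered length at fibrillar, beaded filament and fibril-associated collagens, and the epithelium libraries at basement membrane and transmembrane collagens, and a few genes of each class carried these sums. Fibrillar domains summed to 42.9 and 58.4 kb in mesothelium against 21.7 and 17.2 kb in epithelium. Beaded filament domains summed to 24.7 and 17.9 kb in mesothelium against 8.19 and 9.34 kb in epithelium. Fibril-associated domains summed to 24.4 and 25.5 kb in mesothelium against 11.4 and 9.61 kb in epithelium. In the sums of these classes each mesothelium library lay above each epithelium library. Basement membrane domains ran the other way, with 33.5 and 30.6 kb in mesothelium against 65.4 and 43.9 kb in epithelium. Transmembrane domains were short in all libraries, at 4.06 and 1.68 kb in mesothelium against 6.81 and 5.28 kb in epithelium. The remaining collagens summed to 5.95 and 3.29 kb in mesothelium against 3.67 and 3.66 kb in epithelium, where the cell types overlapped. Without Col12a1 and Col14a1 the other 7 fibril-associated genes summed to 1.79 and 5.94 kb in mesothelium against 7.46 and 5.98 kb in epithelium, and the median difference of that class, on the log2 scale of the test described next, was -0.28. Without Col3a1, Col5a1 and Col5a2 the fibrillar sums were 15.99 and 16.63 kb against 18.8 and 14.6 kb, and without Col6a1, Col6a2 and Col6a3 the beaded filament sums were 3.93 and 6.34 kb against 6.48 and 8.72 kb. Without Col18a1 the basement membrane sums were 30.0 and 29.5 kb against 49.6 and 25.1 kb, and without Col25a1 the transmembrane sums were 3.73 and 1.08 kb against 3.30 and 1.62 kb. The fibrillar, basement membrane and transmembrane sums then overlapped. The beaded filament and fibril-associated sums were then lower in each mesothelium library than in either epithelium library. The gaps were narrow, at 6.34 kb against 6.48 kb for beaded filament and 5.94 kb against 5.98 kb for fibril-associated collagens. The genes left out were chosen after their values were seen. Overlapping domains count in each gene, and the sums were described without a test.

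**Figure D1:**
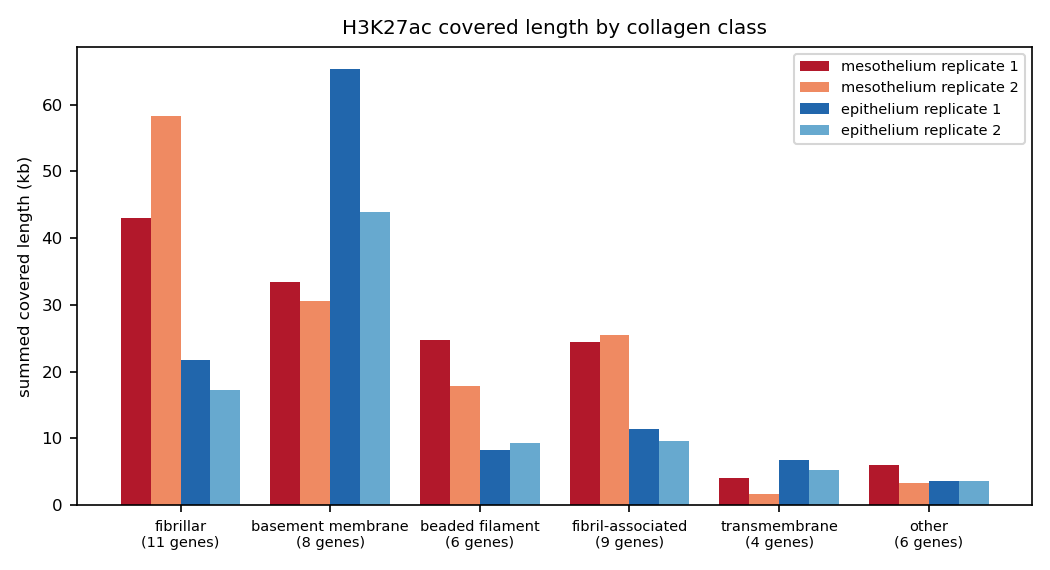
Summed H3K27ac covered length in kb (vertical axis, from 0) for the 6 collagen classes (horizontal axis), with 1 bar per library. Fibrillar collagens reached 42.9 and 58.4 kb in the mesothelium libraries against 21.7 and 17.2 kb in the epithelium libraries, and basement membrane collagens 33.5 and 30.6 kb against 65.4 and 43.9 kb.

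Differences were tested with limma on log2(kb + 0.5), so that a difference understates the change of short domains, and adjusted by Benjamini-Hochberg over the 10486 domains whose mean length reached 0.5 kb. A domain is called longer where the adjusted p is under 0.05. Of the 44 collagen domains, 35 reached the mean needed for testing. Among them 8 (22.9%) were longer in mesothelium, against 1.41% of all tested domains, and 1 (2.86%) was longer in epithelium, against 2.53%. The 8 were the fibrillar Col3a1, Col5a1 and Col5a2, the beaded filament Col6a1, Col6a2 and Col6a3, and the fibril-associated Col12a1 and Col14a1. The 1 was Col18a1, of the basement membrane. The libraries of the cell types did not overlap in 12 tested collagen domains (34.3%) with mesothelium higher, against 22.4% of all tested domains, and in 12 (34.3%) with epithelium higher, against 25.5%. The median difference, mesothelium minus epithelium, was 0.34 over the 35 domains and 0.03 over all tested domains, and the collagen median became -0.062 without mesothelium replicate 2.

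These calls depend on choices of the analysis, and in some of them nearly all calls across the genome are lost as well. None of the 9 passed with a pseudocount of 0.1 kb, with peaks of −log10 q of at least 2, without the variance trend or with peaks of at least 1 kb, settings in which between 0 and 1 domain of the whole genome was called. Other choices removed most collagen calls while many calls across the genome remained, where the main fit called 148 domains in mesothelium and 265 in epithelium. Counting peaks instead of length called 518 domains in mesothelium and 643 in epithelium, but Col3a1 alone of the 8 and not Col18a1. With the gene body plus 5 kb, 115 and 203 domains were called, fewer than in the main fit, and Col5a1 and Col14a1 alone of the 8. The 9 called collagens kept their direction in every alternative that could test them.

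Other cell types could share a gate with the mesothelium, and their marker genes are given here once. The mesothelium markers summed to 29.9 and 58.9 kb in mesothelium against 5.44 and 9.51 kb in epithelium. Of their 8 tested domains, 5 (Wt1, Upk1b, Bnc1, Muc16 and Gpm6a) were longer in mesothelium. Lrrn4 was higher there but not called. Msln ran the other way without a call, with 0.544 and 0.893 kb in mesothelium against 1.185 and 4.285 kb in epithelium. Krt19 overlapped between the cell types, with a difference of -0.24. The 10 epithelium markers summed to 27.9 and 8.87 kb in mesothelium against 152.8 and 165.2 kb in epithelium, with 6 of 8 tested domains longer in epithelium. The 11 fibroblast and mesenchyme markers, of genes active in cells that also make fibrillar collagen, summed to 5.08 and 14.9 kb in mesothelium against 4.09 and 5.95 kb in epithelium. None of their 6 tested domains was called, against 1.41% of all tested domains called longer in mesothelium and 2.53% in epithelium. An unadjusted p under 0.05 in limma was reached by 1 of the 6, Tbx4, against 17.8% of all tested domains. Tbx4 had a mean of 2.38 kb in mesothelium against 0.172 kb in epithelium, without overlap (difference 2.14, limma adjusted p = 0.149). Foxf1 was covered over 0 and 5.27 kb in mesothelium against 0 and 0.409 kb in epithelium, which overlap. Meox2 ran the other way without overlap, at a difference of -0.97. Twist1 and Gli1 had no peak in any library. The defining fibroblast gene Pdgfra was covered over 1.09 and 0 kb in mesothelium against 0 and 0.555 kb in epithelium, and Tcf21 over 0.354 and 0.571 kb in mesothelium and nowhere in epithelium. The 6 smooth muscle markers summed to 2.79 and 1.10 kb in mesothelium against 4.05 and 6.05 kb in epithelium. The 7 blood endothelium markers summed to 12.9 and 10.5 kb in mesothelium against 3.00 and 5.78 kb in epithelium, with Kdr and Tek longer in mesothelium, while Cdh5, Erg and Sox17 had no peak in either mesothelium library. Lymphatic markers summed to 1.23 and 1.02 kb in mesothelium against 2.13 and 2.14 kb in epithelium, and the 5 blood cell markers to 3.53 and 0.721 kb and to 12.3 and 26.7 kb. Nearly all of the blood cell sum was Runx1, covered over 2.87 and 0.721 kb in mesothelium against 12.3 and 25.0 kb in epithelium and longer in epithelium, and Ptprc, the gene of CD45, and Spi1 had no peak in mesothelium. The 7 cartilage markers summed to 24.5 and 39.5 kb in mesothelium against 79.5 and 75.6 kb in epithelium, with Sox6 longer in epithelium and no peak at Acan, Comp or Snorc. The CD45- and CD31- gates are set to remove blood cells and endothelium. Whether cells of these types account for part of any collagen difference was not tested, and in a sorted bulk sample more cells of a type and more acetylation per cell cannot be told apart.

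**Figure D2:**
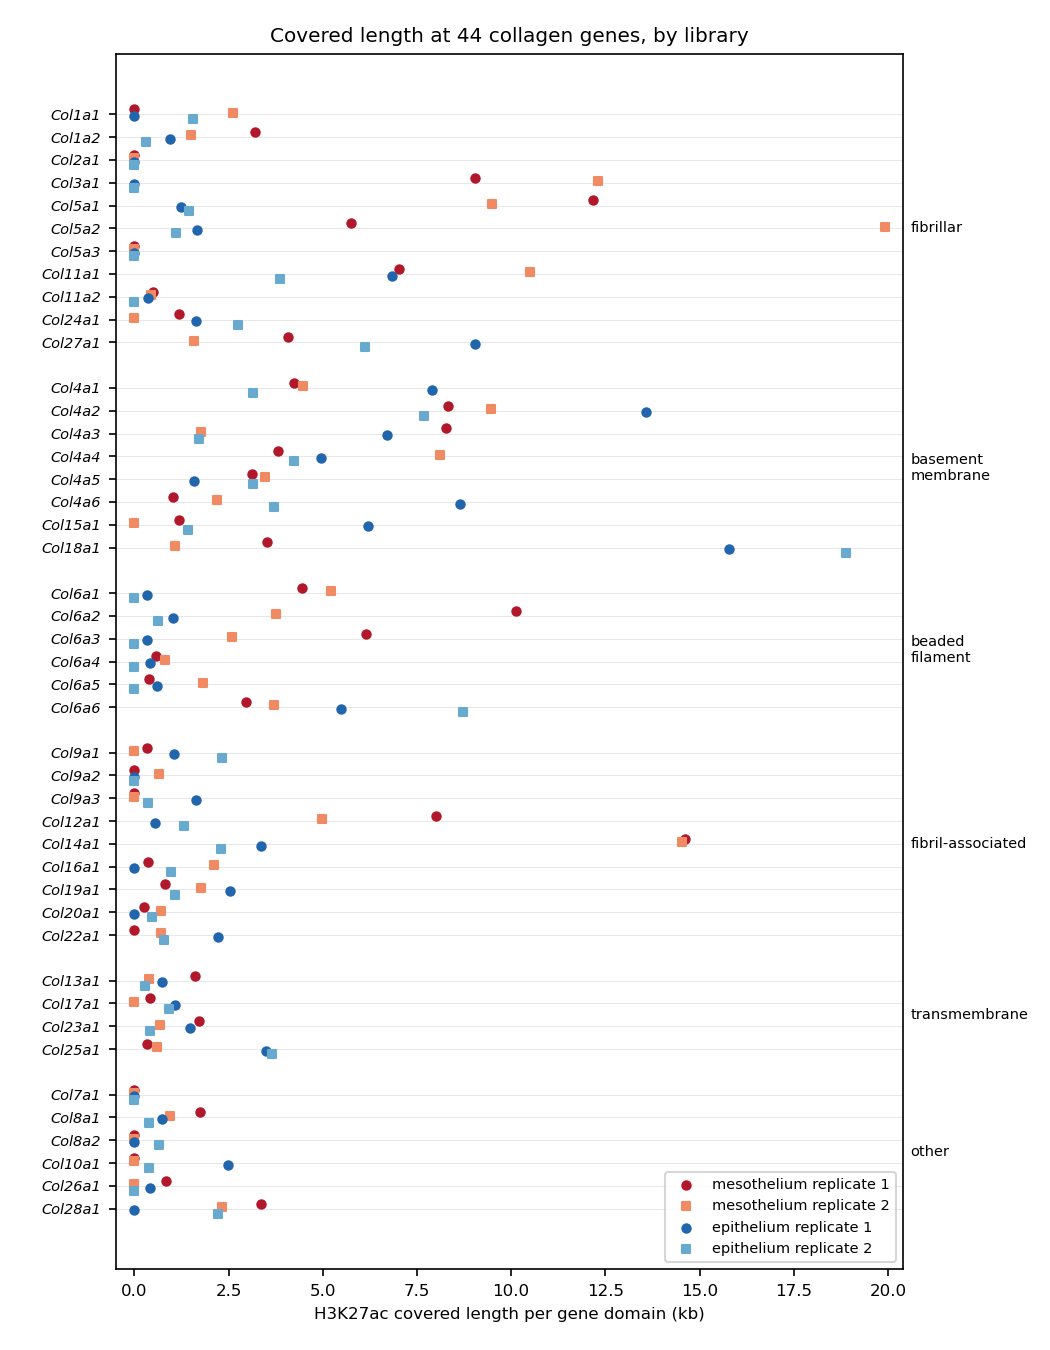
Covered length in kb (horizontal axis) of every collagen domain (rows, grouped by class), with 1 point per library. The red mesothelium points of Col3a1, at 9.05 and 12.3 kb, and of Col14a1, at 14.6 and 14.5 kb, lie far to the right of the blue epithelium points, and those of Col18a1 lie to the left of epithelium points at 15.8 and 18.9 kb.

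Col3a1 and Col5a2, 2 fibrillar collagen genes that are neighbours on chromosome 1, were both longer in mesothelium. Col3a1 (chr1:45311538-45349706) encodes the chain of collagen III, a homotrimer of pliable tissues such as lung, vessel wall and skin. Its domain was covered over 9.05 and 12.3 kb in mesothelium replicates 1 and 2 while both epithelium libraries lacked a peak there. The groups thus did not overlap. The fitted difference was 4.53 (SE 0.67, limma adjusted p = 0.000577), a value that depends on the pseudocount because epithelium had no covered length. Of 20 alternatives that could test it, 14 kept the call, with adjusted p in limma from 1.1e-06 to 0.173. Most of its covered length lay outside the gene body, 7.58 and 7.68 kb, against 1.47 and 4.63 kb inside. With the gene body alone the adjusted p in limma was 0.0716.

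The flanks of Col3a1 held 3 regions seen in the mesothelium libraries and in no epithelium library. They lie at chr1:45289571-45292320, 19.2 kb before the start, at chr1:45297155-45300008, 11.5 kb before it, and at chr1:45355349-45359177, beyond the gene's end. The last was covered over 3.04 kb in mesothelium replicate 1 and 3.21 kb in replicate 2. No library had a peak within 1 kb of the start of Col3a1, so its covered length lay away from the promoter window printed above.

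Col5a2 (chr1:45374331-45503282), a chain of the fibril-nucleating collagen V, lies 24.6 kb from Col3a1. It was covered over 5.74 and 19.9 kb in mesothelium against 1.66 and 1.12 kb in epithelium. Mesothelium replicate 2 was far above replicate 1, and both were above the epithelium libraries. The difference was 2.66 (SE 0.61, limma adjusted p = 0.0137), and without mesothelium replicate 2 the adjusted p in limma was 0.203 (range over the alternatives 0.000343 to 0.807). A region over its higher-coordinate end (chr1:45500717-45503452) was covered in both mesothelium libraries, over 1.33 and 2.74 kb, and in neither epithelium library. Its highest −log10 q was 5.69, the largest among the 45 regions seen in both libraries of 1 cell type and neither of the other. Col5a2 has no listed start, so this region was not classed as lying at a start or away from it.

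**Figure D3:**
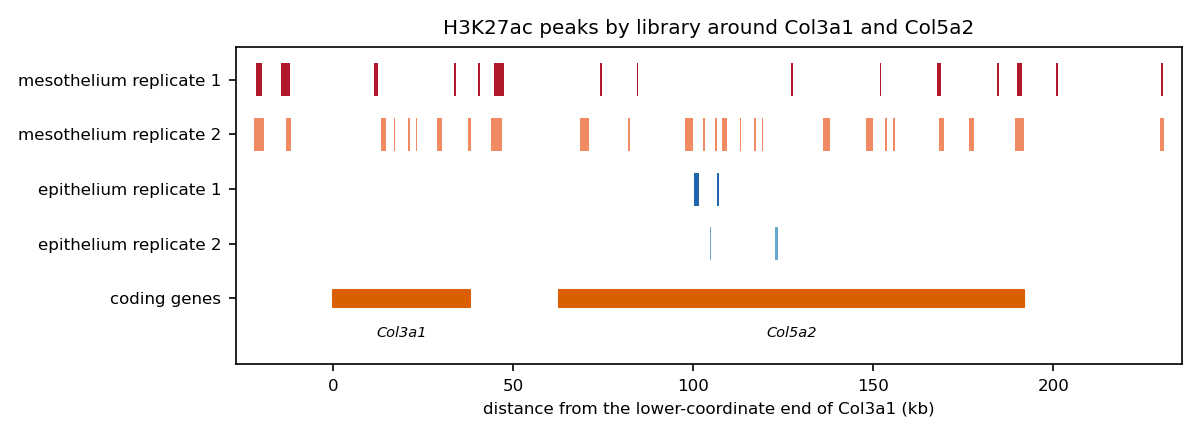
Peaks of the 4 libraries (coloured bars, 1 row each) and coding genes (lowest row) by distance in kb from the lower-coordinate end of Col3a1. The mesothelium rows have peaks on both sides of Col3a1 and along Col5a2, and the epithelium rows have peaks within Col5a2 alone, 2 in each library.

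Col5a1 (chr2:27886381-28039510), the other main chain of collagen V, was also longer in mesothelium. It was covered over 12.2 and 9.49 kb in mesothelium against 1.23 and 1.44 kb in epithelium, with no overlap. The difference was 2.68 (SE 0.56, limma adjusted p = 0.0080), and no single library removed the call. Its mesothelium peaks lay mostly in the gene body, 11.6 and 8.11 kb, and 4 of its regions were seen in both mesothelium libraries and in no epithelium library. These include chr2:27885171-27886128, which ends 0.297 kb before the start site, and chr2:28013293-28016648, which lies 127 kb after it within the gene.

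None of the other fibrillar genes was called. Col1a1 and Col1a2 encode collagen I, the most abundant collagen of bone, tendon and lung interstitium. Col1a1 was covered over 0 and 2.62 kb in mesothelium against 0 and 1.55 kb in epithelium, which overlap (difference 0.36, limma adjusted p = 0.894). Col1a2 was covered over 3.21 and 1.49 kb in mesothelium against 0.954 and 0.297 kb in epithelium, which do not overlap, at a difference of 1.40 (SE 0.75, limma adjusted p = 0.342). It had 1 region of mesothelium alone, 2.33 kb before the start (chr6:4502140-4503284). Col11a1, a chain of collagen XI of cartilage and other tissues, was covered over 7.03 and 10.5 kb in mesothelium against 6.84 and 3.88 kb in epithelium (difference 0.74, limma adjusted p = 0.454). The remaining tested fibrillar genes had negative differences that did not pass, with Col24a1 at 1.19 and 0 kb against 1.63 and 2.76 kb, and Col27a1 at 4.08 and 1.57 kb against 9.05 and 6.12 kb (mesothelium first in each case). Col2a1, the collagen of cartilage, and Col5a3 had no peak in any library. Col11a2 was covered over 0.487 and 0.439 kb in mesothelium against 0.364 and 0 kb in epithelium, under the mean needed for testing.

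Collagen VI, the beaded filament collagen whose α1, α2 and α3 chains form its common heterotrimer, had all 3 of those chain genes longer in mesothelium. Col6a1 (chr10:76708792-76726044) was covered over 4.45 and 5.22 kb in mesothelium against 0.332 and 0 kb in epithelium. The difference was 3.10 (SE 0.72, limma adjusted p = 0.015), and leaving out mesothelium replicate 1, mesothelium replicate 2 or epithelium replicate 2 gave 0.0541, 0.0856 and 0.0799 (range over the alternatives 0.00498 to 0.337). Most of the mesothelium length of Col6a1 lay in the flanks, 3.074 and 4.485 kb, against 1.379 and 0.730 kb in the gene body. With the gene body alone the adjusted p in limma was 0.337, and with the gene body plus 5 kb it was 0.0611. A region over its start (chr10:76725678-76727245) was covered over 1.09 and 0.488 kb in the mesothelium libraries. Further mesothelium regions lay 3.88 and 6.45 kb upstream and 30.4 kb from the start on the gene's other side (chr10:76695036-76695655), the last reaching a −log10 q of 5.17.

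Col6a2 (chr10:76595756-76623630), 85.2 kb from Col6a1, was covered over 10.1 and 3.75 kb in mesothelium against 1.04 and 0.627 kb in epithelium. The difference was 2.41 (SE 0.67, limma adjusted p = 0.0448), close to the threshold. The call was lost without mesothelium replicate 1, epithelium replicate 1 or epithelium replicate 2, with adjusted p in limma of 0.315, 0.0658 and 0.145 (range over the alternatives 0.00547 to 0.315). Only 0.407 and 0.637 kb of its mesothelium length lay in the gene body, and 9.72 and 3.12 kb lay in the flanks. With the gene body alone or plus 5 kb, Col6a2 fell under the limit for testing. Its 3 regions seen in both mesothelium libraries alone were upstream, at 19, 26.2 and 40.3 kb from the start, the widest 4.51 kb (chr10:76649806-76654312).

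Col6a3 (chr1:90766860-90844001) was covered over 6.14 and 2.59 kb in mesothelium against 0.333 and 0 kb in epithelium. The difference was 2.87 (SE 0.76, limma adjusted p = 0.0328), and it did not pass without mesothelium replicate 1 (0.246) or epithelium replicate 2 (0.135), the range over alternatives being 0.0133 to 0.432. The epithelium libraries were nearly empty at both Col6a1 and Col6a3. The 3 alternative chain genes of collagen VI, a cluster on chromosome 9, did not share the pattern of calls. Col6a5 was covered over 0.392 and 1.82 kb in mesothelium against 0.595 and 0 kb in epithelium (difference 1.02, limma adjusted p = 0.584). Col6a6 was covered over 2.97 and 3.71 kb in mesothelium against 5.48 and 8.72 kb in epithelium, at a difference of -0.90 (limma adjusted p = 0.403). Col6a4, with 0.571 and 0.803 kb against 0.407 and 0 kb, had a mean of 0.445 kb, just outside the limit for testing. Col9a3, with 0 kb in mesothelium against 1.63 and 0.375 kb in epithelium, lay just inside it at 0.502 kb. Col9a3 overlaps the coding gene Tcfl5, so a peak in the overlap cannot be assigned to either gene.

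Col6a2 and Col6a1 are followed on chromosome 10 by Col18a1, which was called in the other direction. Col18a1 (chr10:77052178-77166530) encodes collagen XVIII, a heparan sulphate proteoglycan of basement membranes and the source of endostatin. It was covered over 3.53 and 1.09 kb in mesothelium against 15.8 and 18.9 kb in epithelium, a wide gap with no overlap. The difference was -2.75 (SE 0.54, limma adjusted p = 0.00516). Without epithelium replicate 2 the adjusted p in limma was 0.0507, within a range of 1.69e-06 to 0.355 over the alternatives. Nearly all of its epithelium length was in the gene body, 14.9 and 18.9 kb. Col18a1 lies 326.1 kb from Col6a1, with Pcbp3 and Slc19a1 between them. Pcbp3 was covered over 2.76 and 0.358 kb in mesothelium against 2.67 and 2.81 kb in epithelium, and Slc19a1 over 0.545 kb in epithelium replicate 2 alone. The neighbourhood thus held 2 genes longer in mesothelium and 1 longer in epithelium.

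**Figure D4:**
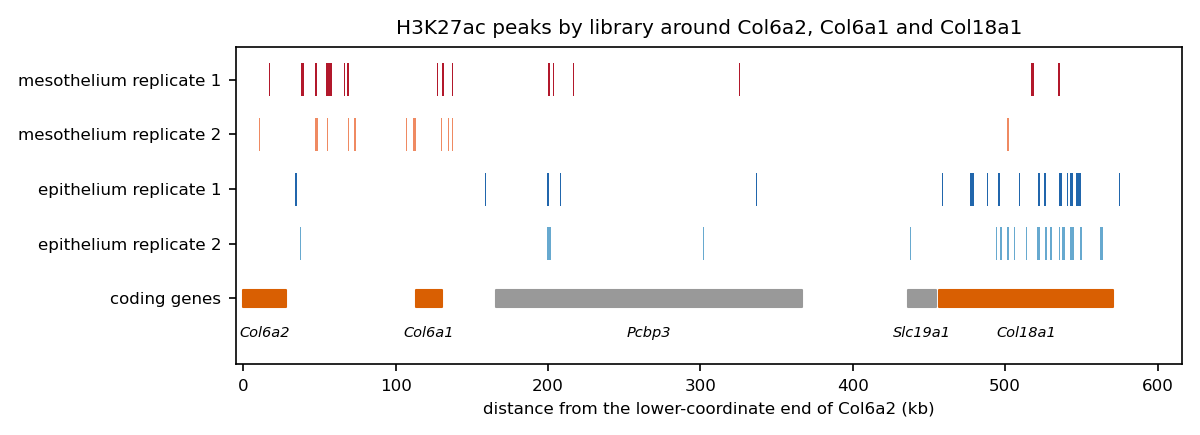
Peaks of the 4 libraries (coloured bars, 1 row each) and coding genes (lowest row) by distance in kb from the lower-coordinate end of Col6a2. Mesothelium peaks gather beside Col6a2 and Col6a1, and epithelium peaks gather within Col18a1.

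Col18a1 held 6 of the 14 collagen regions seen in both epithelium libraries and in no mesothelium library, the most of any collagen. The widest were chr10:77142574-77146039, covered over 2.92 and 1.34 kb, and chr10:77138474-77141031, covered over 1.68 and 2.43 kb. Another, chr10:77116870-77118850, lay 3.17 kb from the inner start site, whose own window is printed above. None of these regions reached a −log10 q of 4.

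The chains of collagen IV, the network of every basement membrane, were covered in both cell types. The genes Col4a1 and Col4a2 encode its ubiquitous chains from start sites 21 bases apart on opposite strands, with promoter windows that share 78 bases. Col4a1 was covered over 4.25 and 4.49 kb in mesothelium against 7.90 and 3.14 kb in epithelium, and Col4a2 over 8.32 and 9.47 kb and 13.6 and 7.68 kb. Both overlapped between the cell types, with differences of -0.12 and -0.13 (limma adjusted p = 0.940 and 0.914). The shared start had a peak in mesothelium replicate 1 and in the epithelium libraries, and none in mesothelium replicate 2. Inside Col4a2, chr8:11349921-11353514 was covered in the epithelium libraries alone (2.20 and 2.51 kb), and chr8:11404563-11406857 in the mesothelium libraries alone (1.79 and 1.12 kb), so regions of either kind occurred within a gene whose total did not pass.

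The chains of the tissue-restricted collagen IV networks, Col4a3 to Col4a6, also did not pass. Col4a3 and Col4a4, which lie head to head on chromosome 1, were covered over 8.27 and 1.77 kb and over 3.81 and 8.10 kb in mesothelium, and over 6.72 and 1.72 kb and over 4.94 and 4.25 kb in epithelium. Col4a4 held 1 of the 2 collagen regions with a peak in all 4 libraries, chr1:82577706-82581720. Col4a5 on the X chromosome was covered over 3.13 and 3.47 kb in mesothelium against 1.59 and 3.14 kb in epithelium. Its neighbour Col4a6, whose start is 1343 bases away, was covered over 1.02 and 2.19 kb in mesothelium against 8.66 and 3.71 kb in epithelium. Only Col4a6 did not overlap between the groups, at -1.56 (SE 0.63, limma adjusted p = 0.190), and 2 of its regions were seen in both epithelium libraries alone. Col15a1, which encodes the multiplexin related to collagen XVIII, was covered over 1.17 and 0 kb in mesothelium against 6.21 and 1.43 kb in epithelium (difference -1.92, limma adjusted p = 0.213).

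Among fibril-associated collagens, which decorate fibrils and space them, Col14a1 and Col12a1 were longer in mesothelium. Col14a1 (chr15:55307644-55520803) was covered over 14.6 and 14.5 kb in mesothelium against 3.36 and 2.30 kb in epithelium, with nearly equal mesothelium libraries and no overlap. The difference was 2.26 (SE 0.48, limma adjusted p = 0.0090), and leaving out any single library kept the call. It held 6 regions of both mesothelium libraries alone, the most of any collagen. At chr15:55362190-55363566 and chr15:55377498-55379405 the deposited −log10 q reached 5.61 and 5.40. Col12a1 (chr9:79598987-79721141) was covered over 8.01 and 4.99 kb in mesothelium against 0.546 and 1.33 kb in epithelium. The difference was 2.37 (SE 0.65, limma adjusted p = 0.0425). The call was lost without mesothelium replicate 1, epithelium replicate 1 or epithelium replicate 2, at 0.202, 0.207 and 0.0507 (range over the alternatives 0.0185 to 0.675).

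The other fibril-associated genes did not pass. Col9a1, a collagen IX chain of cartilage, was covered over 0.335 and 0 kb in mesothelium against 1.06 and 2.33 kb in epithelium. Tested differences of Col16a1, Col19a1 and Col22a1 were 0.88, -0.28 and -1.21. Col9a2 had 0.653 kb in mesothelium replicate 2 alone, and Col20a1 had 0.269 and 0.717 kb in mesothelium against 0 and 0.459 kb in epithelium, both under the limit for testing.

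Transmembrane collagens were short or absent in most libraries. Col25a1, a neuronal type II membrane collagen, was covered over 0.331 and 0.601 kb in mesothelium against 3.51 and 3.66 kb in epithelium, which do not overlap. The difference was -2.03 (SE 0.70, limma adjusted p = 0.115), although it was called when peaks were counted instead of their length. Col17a1, a hemidesmosome component of basal epithelial cells, was covered over 0.403 and 0 kb in mesothelium against 1.09 and 0.912 kb in epithelium (difference -1.10, limma adjusted p = 0.547). Col23a1 was covered over 1.72 and 0.692 kb in mesothelium against 1.47 and 0.417 kb in epithelium. Col13a1 differed by 0.52 and overlapped between the cell types.

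The 6 collagens of other kinds gave no call. Col8a1, a short-chain collagen of vessel walls, was covered over 1.74 and 0.958 kb in mesothelium against 0.741 and 0.400 kb in epithelium. Col10a1, the collagen of hypertrophic cartilage, has a domain of only 7.11 kb and was covered over 2.50 and 0.390 kb in epithelium and not at all in mesothelium (difference -1.65, limma adjusted p = 0.361). It lies inside the coding gene Nt5dc1, so its peaks cannot be told apart from peaks of that gene. Col28a1 was covered over 3.37 and 2.33 kb in mesothelium against 0 and 2.23 kb in epithelium, at 1.56 (limma adjusted p = 0.320). The anchoring fibril gene Col7a1 had no peak in any library. Col8a2 had 0.645 kb in epithelium replicate 2 alone, and Col26a1 had 0.844 kb in mesothelium replicate 1 and 0.426 kb in epithelium replicate 1. In all, 9 of the 44 genes were not tested, of which Col2a1, Col5a3 and Col7a1 had no peak at all.

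**Figure D5:**
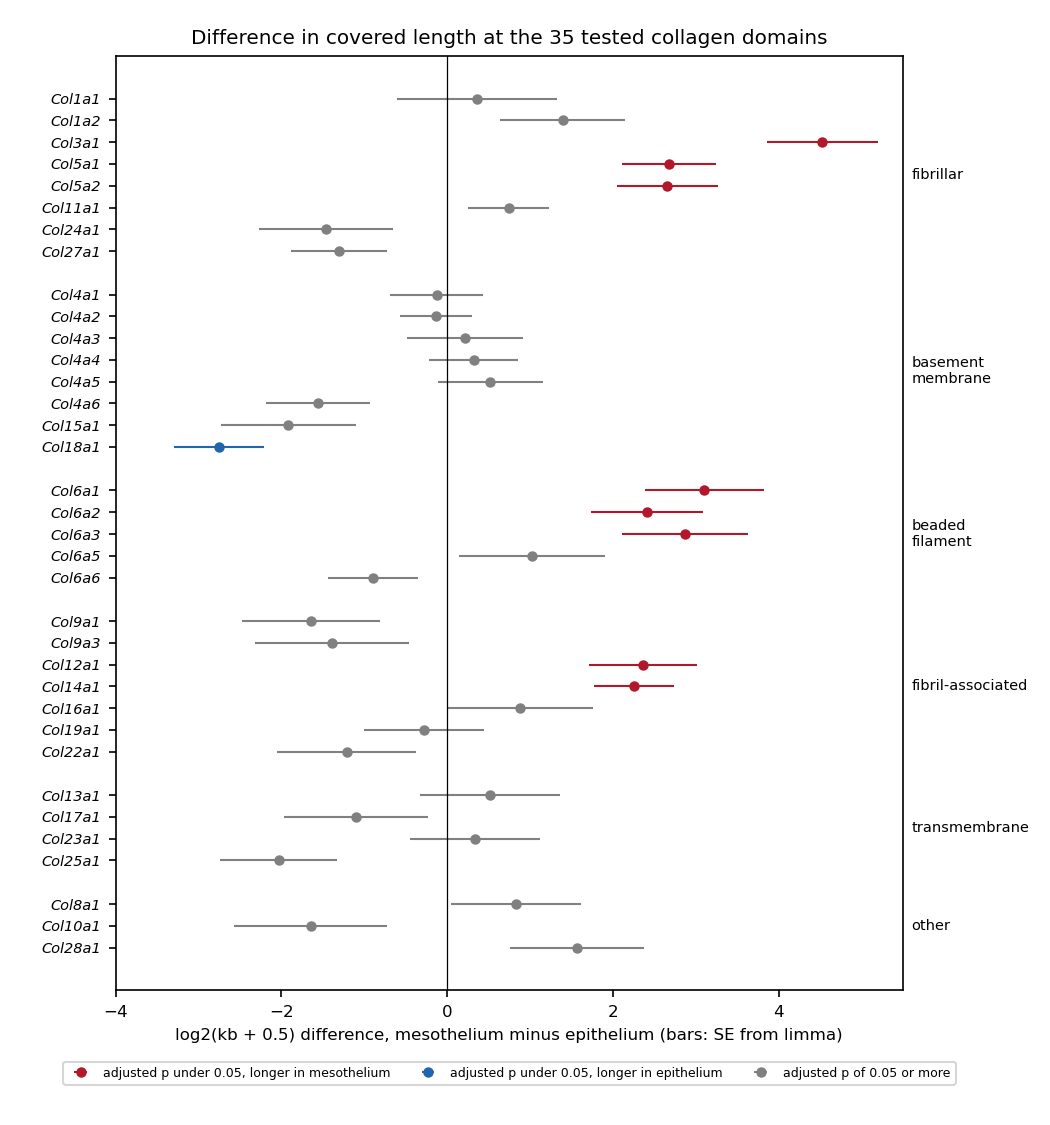
Difference in log2(kb + 0.5), mesothelium minus epithelium (horizontal axis), for the 35 tested collagen domains by class, with the SE from limma as bars. The 8 red points lie between 2.26 (Col14a1) and 4.53 (Col3a1), and the blue point of Col18a1 lies at -2.75.

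When peaks of the 4 libraries were merged, the collagen domains held 471 regions. Of these, 31 (6.58%) were covered in each mesothelium library and in no epithelium library, against 2.6% of all regions. In the reverse direction 14 (2.97%) were covered in both epithelium libraries alone, against 3.31%. Regions with a peak in all 4 libraries numbered 2 (0.425%), against 3.24% of all regions. Regions in 1 library of each cell type numbered 28 (5.94%), against 5.34% of all regions. These pool every pairing of a mesothelium with an epithelium library, whereas the 31 come from a single pair, so the counts are not directly comparable. Most regions, 386, were seen in 1 library only. Of the 31, 17 lay within a gene, 8 upstream of a start and 2 over or beside a start. Genes without a listed start, among them the called Col5a2, Col12a1 and Col14a1, could not add to the counts upstream of or at a start. The mesothelium region chr15:55308035-55310725, beside the lower-coordinate end of Col14a1, thus counts as within the gene. Of the 14, 13 lay within a gene and 1 over the start of Col27a1.

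Replicates shared little of their covered length at collagens, and libraries of different cell types shared less. The Jaccard index (the length covered in both libraries divided by the length covered in either) within collagen domains was 0.109 between mesothelium replicates and 0.0829 between epithelium replicates. Across cell types it was between 0.0189 and 0.0541. Over the genome the same index was 0.132, 0.140 and between 0.0912 and 0.102.

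At 14 of the 35 collagen genes with a listed start (40%) some library had a peak within 1 kb of it, against 46.7% of coding genes. A peak lay within 1 kb of a start in each mesothelium library and in no epithelium library at 2 of the 35 genes, Col5a1 and Col6a1 (5.71%, against 2.81% of coding genes). The reverse held at 1, Col27a1 (2.86%, against 1.65%). No collagen start had a peak in all 4 libraries, while 11% of the 17492 coding genes with a start did. No library had a peak within 1 kb of the start at 21 of the 35 collagen genes (60.0%), against 53.3% of coding genes. The starts of Col3a1 and Col6a2 were among them. Col5a2, Col12a1 and Col14a1, all called longer in mesothelium, have no listed start and are not among the 35 genes.

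Collagen chains need hydroxylation, folding, export, trimming and crosslinking, and of 32 genes with these roles 22 were tested and none was called in either direction. Over all tested domains 1.41% were called longer in mesothelium and 2.53% in epithelium, shares at which a list of 22 can hold no call. An unadjusted p under 0.05 in limma was reached by 10 of the 22 (45.5%), against 17.8% of all tested domains, with a positive difference in 6 and a negative one in 4. The 4 were P4ha3 (1.24 and 0.837 kb in mesothelium, 4.09 and 4.73 kb in epithelium), Plod2 (5.04 and 3.44 kb, then 10.8 and 10.6 kb), Colgalt2 (0.451 and 0.963 kb, then 4.31 and 2.82 kb) and P3h2 (5.04 and 6.04 kb, then 13.1 and 10.2 kb), all enzymes that modify collagen chains. The median difference over all 22 tested genes was 0.25. The 4 smallest adjusted p in limma belonged to genes with longer covered lengths in mesothelium. Sec23a, a coat protein of the vesicles that export procollagen, was covered over 5.06 and 7.59 kb in mesothelium against 1.43 and 1.63 kb in epithelium (limma adjusted p = 0.103). P4ha1, a prolyl hydroxylase subunit, was covered over 6.95 and 13.0 kb and 4.15 and 2.31 kb (limma adjusted p = 0.115). Adamts2, the enzyme that removes the amino-terminal propeptide, was covered over 4.29 and 3.12 kb and 1.36 and 0 kb (limma adjusted p = 0.118). Loxl1, a lysyl oxidase family enzyme of crosslinking, was covered over 2.61 and 5.83 kb and 1.31 and 0.310 kb (limma adjusted p = 0.139).

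Of 13 matrix partners of collagen, such as small proteoglycans, 11 were tested and none was called. Over all tested domains 1.41% were called longer in mesothelium and 2.53% in epithelium. The median difference of the 11 was 0.02. An unadjusted p under 0.05 in limma was reached by 3 of the 11 (27.3%), against 17.8% of all tested domains. Fmod, encoding the fibril-binding proteoglycan fibromodulin, was covered over 5.12 and 4.48 kb in mesothelium against 15.8 and 13.5 kb in epithelium (difference -1.45, limma adjusted p = 0.0677), and it was called in 3 of the alternatives. Fn1, the fibronectin gene, was covered over 0.424 and 0 kb in mesothelium against 2.28 and 3.51 kb in epithelium (difference -2.23, limma adjusted p = 0.117). Dcn, encoding decorin, was covered over 5.82 and 4.92 kb in mesothelium against 3.62 and 0.353 kb in epithelium (limma adjusted p = 0.197). Aspn, another small proteoglycan gene, was covered over 3.81 and 0.589 kb in mesothelium against 0.448 and 0 kb in epithelium (limma adjusted p = 0.312).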

How the data were processed

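Peak lists of 4 H3K27ac libraries were used, 1 deposited list per library, called per library. The submitters' processing notes list the build mm10, the peak caller MACS2 (2.2.9.1), the aligner Bowtie2 (2.5.3), cutadapt (4.8), bedtools (2.31.1), HOMER, FastQC and DiffBind (3.6.5) with edgeR, and deepTools (3.5.5), without saying how each was run. The deposited score of each peak was not used in any test. The authors' ratio for a peak, its fold enrichment, served only to describe it. The deposited −log10 p ranked peaks within a list, and the deposited −log10 q filtered them, in alternatives. The lists hold 39010, 41532, 47873 and 46633 peaks (mesothelium 1 and 2, epithelium 1 and 2), with a lowest −log10 q between 1.00 and 1.03. The lists give no counts, so depth is unknown, and a place without a peak may still be acetylated.

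Autosomal, X and Y peaks were used. A RefSeq table of GRCm38.p6 gave gene positions, and starts and promoters came from a RefSeq promoter table of the same assembly, with 35 of 44 collagens matched. The test of covered length was run in R 4.3.3 with limma 3.58.1, on log2(kb + 0.5), with median centring over 6918 domains that had peaks in every library, an intensity trend and Benjamini-Hochberg adjustment. Regions were merged where peaks overlapped by at least 1 bp. Python 3.11.15 with numpy 2.4.6, matplotlib 3.10.9 and pandas 2.3.3 did the rest. The coverage and limma steps were tested on simulated data.

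The members and lists were chosen with earlier results of these data known. Values were given by rule for called members, for the 2 largest differences and the 2 longest domains per class, and for genes that share a promoter or border, and for up to 4 genes per pathway list. Values of further members, and the start of Col27a1, were added after they were seen. Groups came from the sample titles. The replicate numbers were not treated as pairs, since the deviations of replicate 1 in the cell types correlated at r = 0.029. Cell numbers differ between libraries, and no test at equal numbers was made.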

Additional observations from a re-analysis of the deposited data

How the results depend on the processing

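The 8 collagen domains longer in mesothelium became 0 with a pseudocount of 0.1 kb, with −log10 q of at least 2 or 4, without the variance trend and with peaks of at least 1 kb, a setting chosen after seeing the data. They became 5 without centring, with scaling to total covered length and with quantile normalization, 3 with the gene body alone, 2 with the gene body plus 5 kb, and 1 (Col3a1) by number of peaks, and between 4 and 6 with 1 library left out. The 1 domain longer in epithelium became 0 under the same 5 settings that gave 0 in mesothelium, 3 by number of peaks (Col10a1, Col25a1 and Col27a1), and 0 or 1 with 1 library left out. Over all domains, limma called 148 and 265, but 0 without the trend (1747 domains at an unadjusted p under 0.05), at −log10 q of at least 2 (960) or 4 (23) and with peaks of at least 1 kb (1653). With total-length scaling it called 91 and 108, which moves the balance toward mesothelium. Of the 32 synthesis and crosslinking genes, 1 (Loxl1) was called with equal numbers of peaks, 2 (Fkbp10 and P4hb) by number of peaks, and 0 to 1 with a library left out (P4ha1, without mesothelium replicate 1). The matrix partner Fmod was called longer in epithelium with a pseudocount of 1 kb, with a mean of at least 2 kb and without mesothelium replicate 1. The collagen median of 0.34 was 0.68 and 1.11 at −log10 q of at least 2 and 4 (with 2 collagens tested in the latter), 0.97 with peaks of at least 1 kb, and from -0.062 (without mesothelium replicate 2) to 0.40 with a library left out. The medians over all domains in those settings were 0.30, 1.11 and 0.05. The cause of these changes was not tested.

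The 31 mesothelium regions became 15 and the 14 epithelium regions 2 at −log10 q of at least 2, which is 9.32% and 1.24% of the collagen regions left, against 4.18% and 1.95% of all regions. With 1 library left out, so that a single library stands for its cell type, they ranged from 32 to 134 and from 15 to 117. The 2 mesothelium starts became 0 when the peak had to cover the start itself, and ranged from 2 to 5 with a library left out, and the 1 epithelium start from 1 to 4. With the replicate block, the 9 collagen calls were the same genes (8 and 1) while the calls over all domains rose to 209 and 348. The block changed no other collagen call. The peak lists give no reads, so depth is unknown, and domains with few or no peaks were not tested.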
